A study of Mus musculus with 30 samples.

Results

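The subject is 8 genes of MHC class II antigen presentation in YUMM1.7 mouse melanoma tumours: Cd74, H2-Aa, H2-Ab1, H2-Eb1, H2-DMa, H2-DMb1, Ciita and Ctss. They were taken by name from the 54532 annotated features of each count file. All 8 were found, and all 8 were among the 13286 genes that passed the filter on low counts. The cells came from 5 clones of YUMM1.7, named 2646TN, 2646R, 14559TN, 14559R and 13TN, injected under the skin of mice and labelled as C57BL/6. The sample titles call 13TN by the word Depleted, and what TN and R stand for is not given in them. Each clone was grown untreated or under RAFi/MEKi, the inhibitors of RAF and MEK, and each of the 10 groups so formed holds 3 tumours, 30 libraries in all. The labels give no drug dose and no animal age. Tumours were dissociated with collagenase, stained for dead cells and for the leukocyte antigen CD45, and the injected cells were recognised by strong GFP fluorescence and sorted. Each clone name therefore stands for 1 cell population carried in 6 tumours, and a difference between clones is a difference between those populations.

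MHC class II molecules carry peptides from endosomes and lysosomes to the cell surface, where CD4+ T cells read them. An alpha and a beta chain pair in the endoplasmic reticulum around the invariant chain, the product of Cd74. Proteases, cathepsin S (Ctss) among them, cut the invariant chain down to a short fragment, and the H2-DM heterodimer exchanges that fragment for other peptides. Transcription of the chains, of Cd74 and of H2-DM is governed by the coactivator CIITA, which is present in dendritic cells, macrophages and B cells and can be induced by interferon gamma in many other cell types, melanoma cells included.

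Library totals ran from 3022801 to 5278453 counts. Counts came from 3′ libraries, in which a transcript gives reads near its end whatever its length. Levels below are CPM, read counts scaled to a common library size with TMM factors, and they are compared between samples of 1 gene and not between genes. In such bulk libraries, fewer cells of a type and less RNA per cell cannot be told apart. The labelled cell type was set against pigment cell markers: Mitf was counted in all 30 libraries (12.0 to 81.3 CPM), while Tyr, Tyrp1 and Dct had 0 counts in all 30 and Mlana had 1 count in total.

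Per the count files, on GRCm38, 5 of the 8 genes lie within 1 stretch of chromosome 17, the mouse MHC. In map order they are H2-DMa (34135182 to 34139101, plus strand), H2-DMb1 (34153072 to 34160230, plus), H2-Ab1 (34263209 to 34269418, plus), H2-Aa (34282744 to 34287827, minus) and H2-Eb1 (34305877 to 34316199, plus). Ctss lies on chromosome 3 (95526786 to 95556403, plus) and Ciita on chromosome 16 (10480059 to 10528418, plus), and Cd74 lies apart from all of these. H2-DMb1 has a close copy beside it, H2-DMb2, to which 38 counts were assigned over the 30 libraries, so the split of reads between these copies is uncertain. H2-Ea-ps and H2-Eb2 had 0 counts in all libraries. C57BL/6 mice carry an H2-b haplotype in which the E alpha gene is defective, so these mice make no functional E molecule although H2-Eb1 is transcribed.

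Promoter windows from RefSeq (GRCm38.p6, 250 bases before to 50 after the annotated start) were matched for 5 members: H2-Aa, H2-Eb1, H2-DMb1, H2-DMa and Ctss. Windows on the chromosome of Cd74 were left out of this matching. The 2 windows of H2-DMa lie outside that gene's span in the count files and are not printed. The 4 printed here show a short element that H2-Aa, H2-Eb1 and H2-DMb1 hold and for which the Ctss window has no match. Class II promoters hold a Y box, an inverted CCAAT element bound by the factor NF-Y, a short way before the start. The 7 letters TGATTGG, searched on both strands, were in 7.8% of all 32817 promoter windows and in the windows of H2-Aa, H2-Eb1 and H2-DMb1, in each case on the gene's own strand. Their first base lay 50 bases before the start in H2-Aa, 61 in H2-Eb1 and 63 in H2-DMb1. In the Ctss window stood an interferon response element core, GAAANNGAAA, which 3.43% of all windows held on either strand. Its first base lay 21 bases before the start, and the letters were GAAACCGAAA. Both searches were chosen after the windows had been read, neither overlaps the other, and a match is a description of the letters, not a measured site. The windows of H2-Eb1 and H2-DMb1 also share a run of 13 bases, AACTGATGATGCT. Capitals mark the searched letters.
H2-Aa (chr17:34287774-34288073, minus strand): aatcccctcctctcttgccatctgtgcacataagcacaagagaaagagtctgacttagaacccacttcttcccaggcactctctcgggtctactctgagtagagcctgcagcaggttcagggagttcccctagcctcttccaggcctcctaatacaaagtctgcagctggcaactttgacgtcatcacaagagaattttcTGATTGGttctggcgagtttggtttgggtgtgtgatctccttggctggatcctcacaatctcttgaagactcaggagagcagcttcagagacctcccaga
H2-Eb1 (chr17:34305617-34305916, plus strand): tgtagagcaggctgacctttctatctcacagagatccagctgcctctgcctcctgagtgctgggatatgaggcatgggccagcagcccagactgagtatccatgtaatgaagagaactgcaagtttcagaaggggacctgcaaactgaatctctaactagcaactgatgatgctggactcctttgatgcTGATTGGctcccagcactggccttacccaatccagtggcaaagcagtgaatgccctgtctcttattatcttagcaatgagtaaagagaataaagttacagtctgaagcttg
H2-DMb1 (chr17:34152941-34153240, plus strand): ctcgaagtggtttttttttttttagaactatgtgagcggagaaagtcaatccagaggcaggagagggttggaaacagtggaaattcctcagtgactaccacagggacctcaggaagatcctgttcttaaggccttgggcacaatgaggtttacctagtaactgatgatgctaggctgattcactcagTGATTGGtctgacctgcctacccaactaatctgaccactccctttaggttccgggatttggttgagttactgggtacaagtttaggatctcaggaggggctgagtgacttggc
Ctss (chr3:95526536-95526835, plus strand): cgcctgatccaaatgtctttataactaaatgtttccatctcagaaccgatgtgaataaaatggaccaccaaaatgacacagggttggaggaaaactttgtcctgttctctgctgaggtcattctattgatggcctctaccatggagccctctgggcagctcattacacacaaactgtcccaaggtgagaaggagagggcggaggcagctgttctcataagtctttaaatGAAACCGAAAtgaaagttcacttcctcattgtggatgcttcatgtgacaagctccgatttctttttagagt

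The surface chains were at their highest in untreated 2646TN. H2-Ab1, the beta chain of the A molecule, stood at 70.8, 55.2 and 76.2 CPM in the 3 untreated 2646TN tumours. In untreated 14559TN the same gene stood at 1.02, 5.84 and 16.1 CPM, and in untreated 14559R at 8.98, 2.08 and 7.09 CPM. The lowest untreated 2646TN tumour therefore lay above every other tumour of the series, of which the highest was a treated 14559TN tumour at 41.5 CPM. H2-Eb1, the E beta chain, was at 68.8, 48.0 and 81.1 CPM in untreated 2646TN and at 46.0 CPM in the next highest tumour, also treated 14559TN. H2-Aa, the A alpha chain, was at 72.8, 35.5 and 66.1 CPM in untreated 2646TN, where it overlapped treated 14559TN (55.9, 35.3 and 24.0 CPM). Ordered by their means, neighbouring groups overlapped for 8 of 9 steps in H2-Ab1 and H2-Eb1 and for 9 of 9 in H2-Aa, so that in H2-Ab1 and H2-Eb1 untreated 2646TN alone was set off from its neighbour and in H2-Aa no group was.

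Cd74, the invariant chain, followed a like order with a wider gap between the upper and lower groups. Its values were 67.0, 28.4 and 77.8 CPM in untreated 2646TN and 28.5, 22.4 and 41.9 CPM in treated 2646TN. Treated 14559TN was at 31.5, 20.7 and 19.1 CPM, treated 13TN at 22.3, 13.8 and 21.2 CPM, and treated 2646R at 13.5, 18.0 and 18.2 CPM. Below these 5 groups lay the other 5, and none of their 15 tumours passed 11.5 CPM. Untreated 14559TN was lowest, at 1.27, 3.69 and 7.06 CPM. The mean of the highest group was 14.4 times that of the lowest, against 9.19 times for H2-Aa, 11.1 times for H2-Ab1 and 13.8 times for H2-Eb1. Of the 9 neighbouring steps, 8 overlapped; the break was between treated 2646R and untreated 13TN.

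H2-DMa and H2-DMb1, which encode the peptide exchange factor H2-DM, divided 2646TN from all other clones, and did so with and without drug. H2-DMb1 stood at 14.9, 18.4 and 21.6 CPM in untreated and 24.9, 17.2 and 19.9 CPM in treated 2646TN. The highest H2-DMb1 value in any of the other 24 tumours was 5.86 CPM, in treated 13TN. In treated 14559R it was nearly uncounted, at 0.45, 0.24 and 0 CPM, or 3 counts over the 3 tumours. H2-DMa was at 10.3, 13.4 and 12.4 CPM in untreated and 19.8, 12.0 and 26 CPM in treated 2646TN, and at 0.39, 0.71 and 2.19 CPM in untreated 2646R. The 6 tumours of 2646TN were the 6 highest for both genes, and the highest H2-DMa value elsewhere was 9.3 CPM, in treated 13TN.

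Ciita, the coactivator, was a low count gene throughout, between 0 and 7.07 CPM, and 7 libraries had 0 counts. The higher values came from treated 2646TN (3.39, 4.55 and 7.07 CPM), treated 13TN (5.86, 5.67 and 2.27 CPM) and untreated 2646TN (5.29, 5.3 and 2.47 CPM). Untreated 14559R had 0 counts in all 3 tumours and treated 14559R had 1 count in all. Untreated 2646R had 2.16 CPM in 1 tumour and 0 in the other two. The groups fell into tiers here: each of the 3 higher groups lay above treated 14559TN, whose tumours stood at 1.99, 1.67 and 1.43 CPM.

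Ctss, which encodes the protease cathepsin S, was at 37.5, 27.7 and 30.8 CPM in untreated 2646TN. Its treated 2646TN tumours were at 8.19, 7.14 and 9.59 CPM, below all 3 untreated ones. Treated 2646R held 16.3, 17.3 and 16.5 CPM and treated 14559TN 27.8, 18.6 and 12.9 CPM. In 14559R all 6 tumours were between 2.02 and 8.55 CPM. Ctss thus parted from H2-DMa, H2-DMb1 and Ciita in treated 2646TN, the group in which those 3 were highest by mean.

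**Figure D1:**
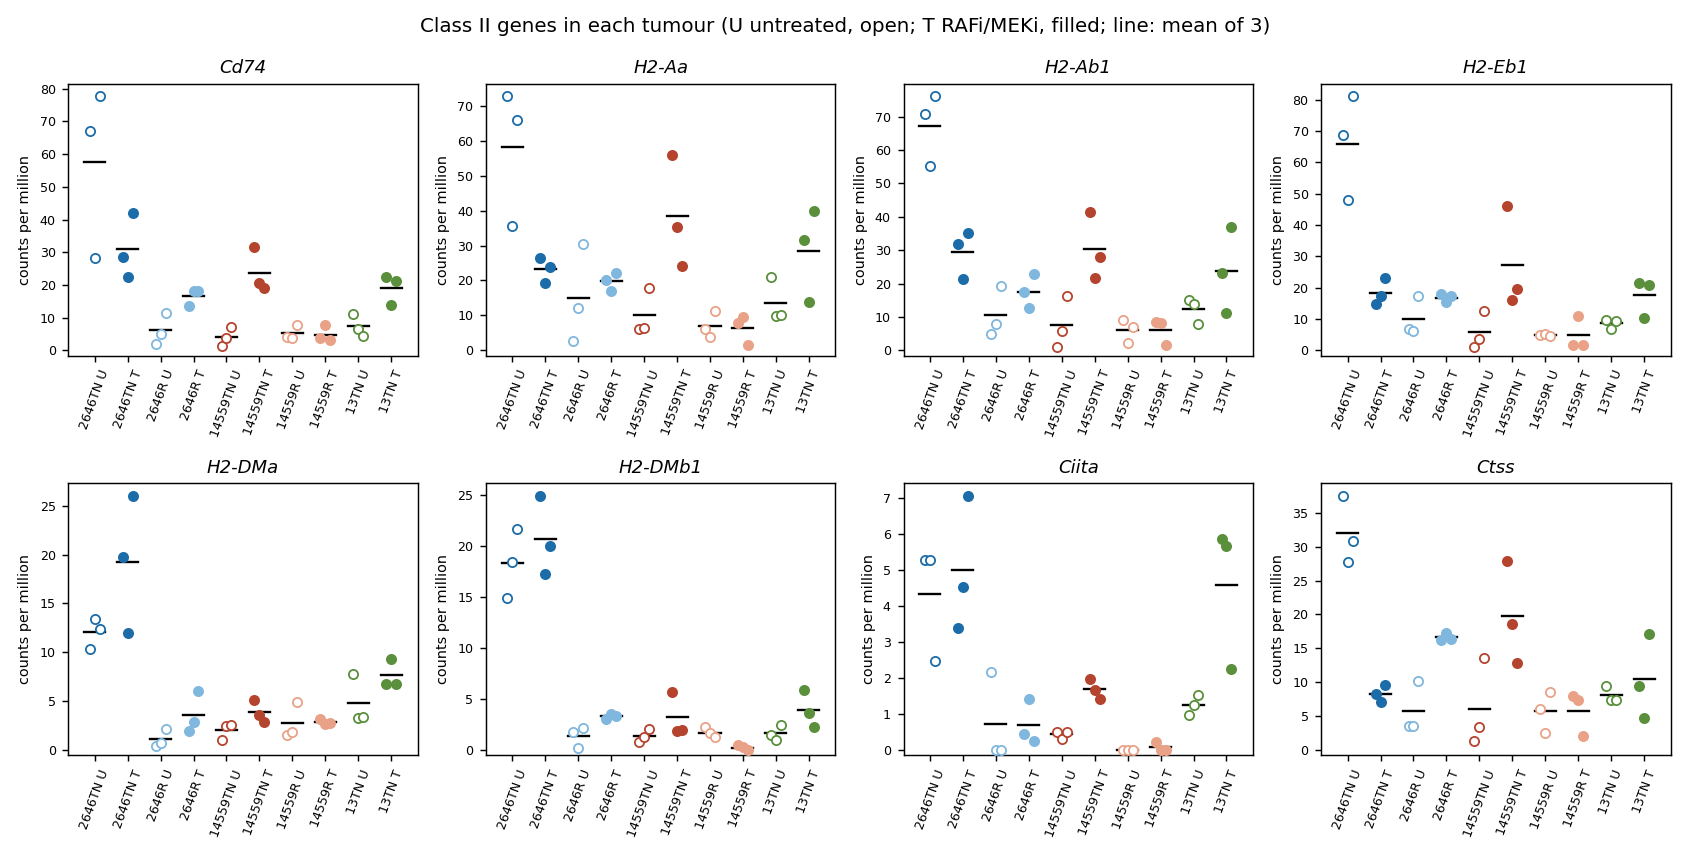
CPM of the 8 genes in each tumour, by clone and treatment; points are tumours, open without drug (U) and filled under RAFi/MEKi (T), and lines are means of 3, with a separate linear axis for each gene. Cd74, the A and E chains and Ctss are highest in untreated 2646TN, while H2-DMa, H2-DMb1 and Ciita have their highest mean in treated 2646TN.

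Because class II genes are abundant in leukocytes, markers of other cells are given beside them. Of 17 macrophage genes, 16 were tested. The summed level of the 17 ran from 248 to 385 CPM in untreated 2646TN, from 55.2 to 141 CPM in treated 2646TN and from 148 to 159 CPM in treated 2646R. In the other 7 groups the tumours lay between 30.3 and 150 CPM. C1qa, a complement subunit that macrophages make, fell in 2646TN from 49.9 ± 17.0 to 9.23 ± 4.47 CPM (SD, n = 3). Ptprc, which encodes CD45, was between 0 and 6.8 CPM and was at 0 in 5 libraries. Adgre1, the macrophage antigen F4/80, had 99 counts over all libraries and was at 0 in 6.

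Most markers of other class II positive cells were scarce. Of 11 dendritic cell genes 3 were tested, Irf8, Itgax and Zbtb46. Itgax had 183 counts over 30 libraries and reached 6.74 CPM, and Zbtb46 had 126 and reached 4.96 CPM. Clec9a, Xcr1 and Flt3 had 4, 5 and 2 counts, with Cd209a at 0. The dendritic list's summed level ran from 2.03 to 139 CPM over the tumours and was mostly Irf8. Irf8, a transcription factor that interferon also induces, was highest in 2646TN (102 ± 12.1 CPM untreated and 118 ± 26.4 treated), and it stood at 81.0 ± 23.0 CPM in untreated 2646R and 2.9 ± 3.34 CPM in untreated 14559TN. Of 7 B cell genes 1 was tested, Ighm (0 to 17.6 CPM); Ms4a1 and Cd79a were at 0 counts. The B cell sum was at its highest, 10.7 to 18.3 CPM, in treated 13TN. None of 12 T and NK cell genes passed the filter, and Cd3g and Ncr1 were at 0 counts. Among neutrophil genes Ly6g and Cxcr2 were at 0 and 1 of 6 was tested. Fibroblast genes were highest in a clone where the members were low: their sum was 2357 to 3697 CPM in treated 14559R and 217 to 465 CPM over the 2646R tumours. Endothelial sums lay between 41.8 and 288 CPM and were mostly Eng (34.8 to 284 CPM). Pecam1, Cdh5, Kdr and Tie1 had means of 3.13, 3.60, 1.58 and 0.80 CPM over the 30 libraries. The pan-leukocyte sum, 4.31 to 95.2 CPM, was highest in treated 14559R, where Laptm5 made up 48.3 ± 31.4 CPM of it.

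**Figure D2:**
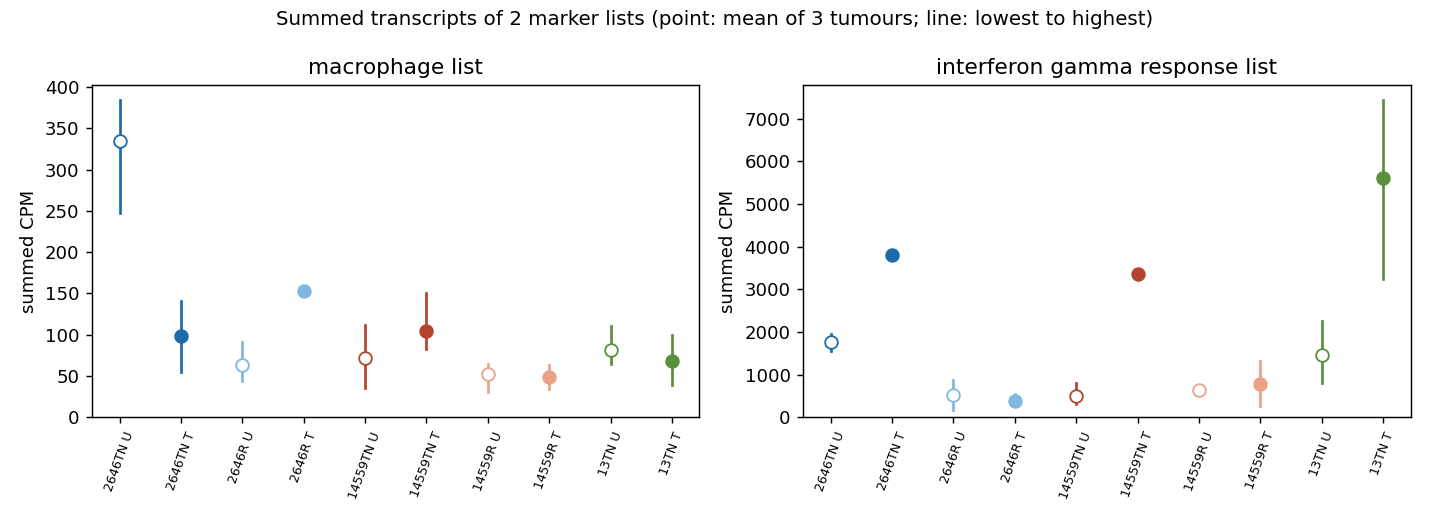
Summed CPM of the macrophage list and of the interferon gamma response list in each group; points are means of 3 tumours and lines span the lowest to the highest tumour. The macrophage sum is highest in untreated 2646TN, and the interferon sum is highest in treated 13TN, treated 2646TN and treated 14559TN.

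The first comparison set untreated clones side by side. All 8 genes were higher in 2646TN than in 14559TN, with a median log2 fold change of 3.15 against 0.0062 over all genes tested; 10.1% of all genes were called higher and 8.76% lower. A gene was called where the adjusted p of edgeR's quasi-likelihood test was under 0.05. The rise was 14.4-fold for Cd74 (log2 fold change 3.84 ± 0.54 SE, adjusted p = 9.90e-06), 13.7-fold for H2-DMb1 (3.74 ± 0.51, adjusted p = 1.44e-06) and 9.90-fold for Ciita (3.19 ± 0.85, adjusted p = 0.0071). Without untreated 14559TN replicate 3 the log2 fold changes were larger, at 4.57 for Cd74, 3.20 for H2-Aa, 4.34 for H2-Ab1, 4.84 for H2-Eb1 and 3.80 for Ctss. Macrophage genes were higher in the same direction, 11 of 16 with 0 lower (median 1.88). With the mean of the macrophage list in the model, Cd74 (1.91, adjusted p = 0.0169) and H2-DMb1 (2.92, adjusted p = 0.0122) kept their calls and the other 6 lost them. Among those 6 the value of Ciita was no smaller than before (3.58, adjusted p = 0.0969), while H2-Aa stood at 0.22 and Ctss at 0.09. In that model, here and below, the slope is set by tumours within groups and carried over to differences between groups. The macrophage sums of these groups did not overlap (248 to 385 against 35.8 to 112 CPM). A call kept or lost there is therefore no test of where a transcript came from. H2-Aa also lost its call when untreated 14559TN replicate 1 was left out (adjusted p = 0.0508).

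Against 13TN, 2646TN was higher in 7 of 8 genes (median 2.26 against -0.0017 over all genes), where 8.63% of all genes were called higher and 7.58% lower. H2-DMb1 was 11.2-fold higher (3.49 ± 0.49, adjusted p = 4.88e-06) and Cd74 7.89-fold higher (2.96 ± 0.49, adjusted p = 1.41e-04). Ciita stood at 4.35 ± 1.63 against 1.25 ± 0.28 CPM (SD, n = 3) and was not called (adjusted p = 0.0963). Of the macrophage genes 9 of 16 were higher and 0 lower. With the macrophage mean in the model only H2-DMb1 of the 8 kept its call. Single tumours mattered here. H2-DMa lost its call without any of untreated 2646TN replicates 1, 2 and 3 or untreated 13TN replicates 2 and 3 (adjusted p up to 0.175), H2-Aa without 2646TN replicates 1 or 3 or 13TN replicates 2 or 3 (up to 0.106), Ctss without 13TN replicates 2 or 3 (up to 0.0609) and H2-Ab1 without 13TN replicate 3 (0.0525). With 1 tumour left out, between 3 and 7 genes were called.

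Between untreated 14559TN and 13TN none of the 8 was called by edgeR, where 5.63% of all genes were called higher and 5.55% lower. Before adjustment 1 was under 0.05, and DESeq2 called 0. The median log2 fold change was -0.61, and H2-DMa (-1.28 ± 0.53, adjusted p = 0.119) had the smallest adjusted p.

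The second comparison set each R clone against the TN clone of the same number. In untreated tumours all 8 genes were lower in 2646R than in 2646TN (median -2.72 against -0.0046 over all genes), where 18.4% of all genes were called lower and 18.3% higher. H2-DMb1 was 13.1-fold lower (-3.69 ± 0.50, adjusted p = 6.94e-07), H2-DMa 11-fold (-3.51 ± 0.54, adjusted p = 5.62e-06) and Cd74 9.41-fold (-3.29 ± 0.51, adjusted p = 1.79e-05). Without untreated 2646R replicate 3 the values were further from 0, among them -4.10 for Cd74, -3.02 for H2-Aa, -3.45 for H2-Ab1, -3.35 for H2-Eb1, -4.41 for H2-DMa and -3.18 for Ctss. Without untreated 2646R replicate 1 no count of Ciita was left in that group, so no fold is given. Macrophage genes were lower too, 11 of 16 with 0 higher (median -1.91), and so was C1qa (log2 fold change -2.92 ± 0.48, adjusted p = 2.97e-05). With the macrophage mean in the model H2-DMa (-2.30, adjusted p = 0.0299) and H2-DMb1 (-2.80, adjusted p = 0.0129) remained called, and H2-Aa, H2-Ab1 and Ctss changed sign, at 0.45, 0.047 and 0.17. Ciita lost its call there with a value no smaller than before (-2.82, adjusted p = 0.145), and Cd74 (-1.15) and H2-Eb1 (-0.45) lost theirs with smaller ones. Ciita lost its call without untreated 2646R replicates 2 or 3 (adjusted p up to 0.0600), and H2-Aa without 2646R replicate 1 (0.0626).

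Under drug, 2646R was lower than 2646TN in 3 genes, H2-DMa, H2-DMb1 and Ciita (median of the 8, -0.83 against -0.0054 over all genes), where 10.1% of all genes were called lower and 10% higher. H2-DMb1 stood at 3.04, 3.51 and 3.29 CPM in treated 2646R, 6.3-fold under 2646TN (-2.65 ± 0.45, adjusted p = 5.68e-05). H2-DMa was 5.33-fold lower (-2.43 ± 0.45, adjusted p = 2.00e-04) and Ciita 7.17-fold (-2.79 ± 0.77, adjusted p = 0.0097). The Ciita call was lost without treated 2646TN replicate 3 or treated 2646R replicates 1 or 3 (adjusted p up to 0.0575), and without treated 2646R replicate 2 the value was -3.73. Macrophage genes did not share this direction: 4 of 16 were higher and 1 lower in 2646R, and Lyz2 was among the higher (1.77 ± 0.44, adjusted p = 0.0057). The 1 that was lower was Mpeg1 (-2.44 ± 0.51, adjusted p = 7.88e-04). All 3 calls were as large or nearly so with the macrophage mean in the model (-2.84, -3.00 and -2.65), and Cd74 (-1.69), H2-Aa (-1.24) and H2-Ab1 (-1.83) were then called as well. Interferon gamma response genes were lower in 2646R in 15 of 15 tested.

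In untreated tumours 14559R and 14559TN did not separate: edgeR called none of the 8, where 12.9% of all genes were called higher and 11.2% lower, 1 was under 0.05 before adjustment, and DESeq2 called 0. Ciita was at 0 counts in 14559R against 5 counts in 14559TN and was not called (adjusted p = 0.102). With 3 counts over the group as the floor the ratio was 1.82, which leaves out the error of the 5 counts. Under drug 7 of 8 genes were lower in 14559R (median -2.4 against 0.0195), where 22.7% of all genes were called lower and 26.6% higher. H2-Aa was 6.07-fold lower (-2.58 ± 0.67, adjusted p = 0.0029), H2-Eb1 5.67-fold (-2.49 ± 0.63, adjusted p = 0.0023) and Cd74 5.01-fold (-2.32 ± 0.52, adjusted p = 7.56e-04). H2-DMb1 had 3 counts in treated 14559R, 12.7 times fewer per unit of depth than in treated 14559TN (95% exact Poisson interval of the lower count, 4.33 to 61.4). Ciita had 1 count, 21.1 times fewer (3.79 to 834). H2-DMa, the exception, was at 2.88 ± 0.26 against 3.84 ± 1.16 CPM (adjusted p = 0.526). Among macrophage genes 4 of 16 were lower and 1 higher (median -1.14), with Lyz2 lower by 2.48 on the log2 scale. With the macrophage mean in the model 6 of the 7 calls held, and Ctss missed the threshold (-0.80, adjusted p = 0.0589). The Ctss call was also lost without treated 14559TN replicate 1 or treated 14559R replicate 3 (adjusted p up to 0.0629). H2-Eb1 was at -3.99 without treated 14559R replicate 2. H2-DMb1 was at -2.89 without treated 14559TN replicate 1 and at -4.38 without treated 14559R replicate 1, the tumour that also held the 1 count of Ciita.

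The third comparison was each clone's response to RAFi/MEKi. In 14559TN 5 of 8 genes rose (median 1.88 against -4.28e-04), where 12.4% of all genes were called higher and 16% lower. Cd74 rose 5.94-fold, from 4.01 ± 2.91 to 23.8 ± 6.75 CPM (2.55 ± 0.54, adjusted p = 8.95e-04), and its groups did not overlap. H2-Eb1 rose 4.7-fold (2.20 ± 0.62, adjusted p = 0.0104), H2-Ab1 3.97-fold (1.96 ± 0.65, adjusted p = 0.0264), H2-Aa 3.79-fold (1.90 ± 0.64, adjusted p = 0.0296) and Ctss 3.25-fold (1.67 ± 0.56, adjusted p = 0.0268). Of these 5 only Ctss had overlapping groups, through the untreated tumour at 13.6 CPM. Ciita went from 0.51, 0.31 and 0.50 CPM to 1.99, 1.67 and 1.43 CPM without overlap, from 5 counts in all to 20, and was not called (adjusted p = 0.133). Macrophage genes were 2 higher and 1 lower of 16 (median 0.31), and C1qa was at 6.66 ± 4.34 and 10.9 ± 1.40 CPM (adjusted p = 0.317). With the macrophage mean in the model all 5 calls held, with log2 fold changes from 1.53 for Ctss to 2.34 for Cd74. Cd74 held its call in each of the 6 fits with 1 tumour left out. H2-Aa, H2-Ab1 and Ctss lost their calls without untreated replicates 1 or 2 or treated replicate 1 (adjusted p up to 0.117), and H2-Eb1 without untreated replicate 1 or treated replicate 1 (up to 0.0796, and a value of 1.6 without the latter), so that between 1 and 5 genes were called. Without untreated replicate 3 the values were larger, at 3.30 for Cd74, 2.62 for H2-Aa, 3.21 for H2-Ab1, 3.57 for H2-Eb1 and 3.12 for Ctss. A fit of these groups alone called 2, Cd74 and H2-Aa.

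In 13TN 2 genes rose (median of the 8, 1.04 against -0.0025), where 13.6% of all genes were called higher and 17.4% lower. Cd74 rose 2.61-fold, from 11.2, 6.45 and 4.31 CPM to 22.3, 13.8 and 21.2 CPM (1.36 ± 0.50, adjusted p = 0.0414). Ciita rose 3.68-fold, from 0.97, 1.24 and 1.54 CPM to 5.86, 5.67 and 2.27 CPM (1.87 ± 0.72, adjusted p = 0.0472). For both genes the groups did not overlap. Both calls were near the threshold. The Cd74 call was lost without untreated replicates 2 or 3 or treated replicates 1 or 3 (adjusted p up to 0.153), and the Ciita call without any untreated replicate or treated replicates 1 or 2 (up to 0.132), which leaves 0 to 2 genes called. Macrophage genes were 1 higher and 1 lower of 16 (median -0.11). With the macrophage mean in the model 5 genes were called higher, Cd74 (1.59), H2-Aa (1.24), H2-Ab1 (1.03), H2-Eb1 (1.20) and H2-DMb1 (1.39), and Ciita missed the threshold (1.82, adjusted p = 0.0599).

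In 2646TN the response had the other direction for the chains and Ctss and no call for the rest. Ctss fell 3.86-fold (-1.94 ± 0.54, adjusted p = 0.0411), the only call among the 8, where 2.24% of all genes were called lower and 1.69% higher. H2-Eb1 was at 66.0 ± 16.8 and 18.3 ± 4.25 CPM, with no overlap (-1.85 ± 0.55, adjusted p = 0.0592), and DESeq2 called it (adjusted p = 0.0234). H2-Ab1 and H2-Aa also did not overlap, with log2 fold changes of -1.19 and -1.33 that were not called. H2-DMa stood at 0.69 ± 0.41 and H2-DMb1 at 0.18 ± 0.39. The Ctss call was lost without any 1 of the 6 tumours (adjusted p 0.0731 to 0.147). A fit of these groups alone called 4 genes lower, Ctss with H2-Aa, H2-Ab1 and H2-Eb1. Macrophage genes fell in 8 of 16 with 0 higher (median -2.02), and with their mean in the model Ctss changed sign (0.59, adjusted p = 0.585).

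In 2646R 3 genes rose (median 0.99 against 0.0121), where 9.7% of all genes were called higher and 10.2% lower. Cd74 rose 2.7-fold (1.49 ± 0.52, adjusted p = 0.0433), H2-DMa 3.3-fold (1.76 ± 0.58, adjusted p = 0.0291) and Ctss 2.91-fold (1.58 ± 0.56, adjusted p = 0.0486). H2-DMa overlapped between the groups, while Cd74 and Ctss did not. Ctss stood at 3.54, 3.55 and 10.1 CPM untreated and 16.3, 17.3 and 16.5 CPM treated. Macrophage genes were 2 higher and 0 lower of 16 (median 1.18), among them Lyz2 (2.10 ± 0.45, adjusted p = 0.0014), and with their mean in the model none of the 3 was called. With 1 tumour left out 0 to 3 genes were called: Cd74 lost its call without untreated replicates 1 or 2 or treated replicates 2 or 3 (adjusted p up to 0.191), H2-DMa without untreated replicates 1 or 2 or treated replicate 3 (up to 0.204), and Ctss without untreated replicates 1 or 2 or any treated replicate (up to 0.178). Without untreated replicate 3 the values were 2.33 for Cd74, 2.71 for H2-DMa and 2.28 for Ctss.

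In 14559R edgeR called none of the 8 (median 0.0048 against 0.0014), where 0.143% of all genes were called higher and 0.0527% lower. Before adjustment 1 was under 0.05, H2-DMb1, and DESeq2 called 0. H2-DMb1 went from 2.24, 1.62 and 1.22 CPM to 0.45, 0.24 and 0 CPM, or from 21 counts to 3, a ratio of 7.02 (95% exact Poisson interval of the lower count, 2.4 to 34) with an adjusted p of 0.172. Cd74 was at 5.17 ± 2.30 and 4.74 ± 2.47 CPM (log2 fold change -0.12 ± 0.59).

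**Figure D3:**
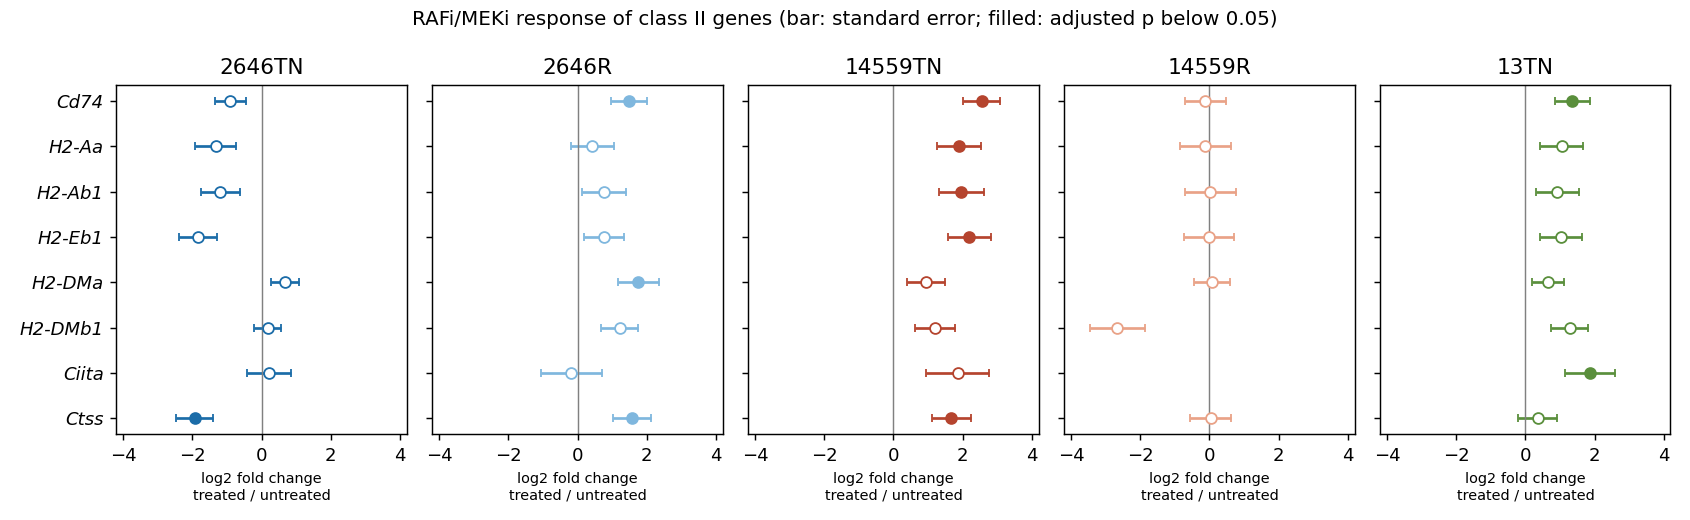
Log2 fold change of treated over untreated tumours for each gene in each clone, from edgeR; bars are standard errors, filled points have an adjusted p below 0.05, and Ciita is not drawn for 14559R, where untreated tumours had 0 counts. Estimates lie to the right of 0 for all 8 genes in 14559TN and 13TN, and to the left for Cd74, the chains and Ctss in 2646TN.

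Whether responses differed between paired clones was tested directly. Between 2646R and 2646TN the difference was called for Cd74 (2.38 ± 0.68, adjusted p = 0.0449) and Ctss (3.51 ± 0.78, adjusted p = 0.0093), both more positive in 2646R, where 2.36% of all genes were called higher and 1.78% lower. The Ctss difference held in all 12 fits with 1 tumour left out (4.19 without untreated 2646R replicate 3, where Cd74 was at 3.20), and the Cd74 difference in 3 of 12 (adjusted p up to 0.122), namely those without untreated 2646TN replicate 2, untreated 2646R replicate 3 or treated 2646TN replicate 3. With the macrophage mean in the model both changed sign, at -0.54 for Cd74 and -0.21 for Ctss. Between 14559R and 14559TN the difference was called for Cd74 (-2.67 ± 0.81, adjusted p = 0.0302) and H2-DMb1 (-3.87 ± 0.98, adjusted p = 0.0077), both lower in 14559R, where 4.08% of all genes were called lower and 7.93% higher. The H2-DMb1 difference, which rests on 3 counts in treated 14559R, held in all 12 such fits, at -3.21 without treated 14559TN replicate 1 and -4.71 without treated 14559R replicate 1. The Cd74 difference held in 6 of 12 (-3.42 without untreated 14559TN replicate 3), and was lost without untreated 14559TN replicates 1 or 2, treated 14559TN replicate 1, untreated 14559R replicate 3 or treated 14559R replicates 1 or 3 (adjusted p up to 0.106).

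Genes that act upstream of class II transcription were given as a list of 14, all tested. Rfx5, a subunit of the RFX complex that recruits CIITA, rose in 14559TN (0.76 ± 0.22, adjusted p = 0.0085) and 13TN (0.75 ± 0.22, adjusted p = 0.0080) under drug. It was lower in 2646R than in 2646TN without drug (-1.11 ± 0.22, adjusted p = 2.09e-04) and with it (-0.61 ± 0.22, adjusted p = 0.0414). Rfxank and Rfxap, the other RFX subunits, were called in none of the 14 comparisons. Of these 14 genes, 5 were higher and 1 lower in the 14559TN response (12.4% and 16% of all genes), 4 and 1 in 13TN (13.6% and 17.4%), 1 and 0 in 2646R (9.7% and 10.2%), and 0 and 0 in 2646TN and 14559R by edgeR. In each of the last 2 clones 1 gene of the list was under 0.05 before adjustment, while DESeq2 called 0.

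Genes that respond to interferon gamma formed a larger list, of which 15 of 17 were tested. In the responses of 14559TN and 13TN 13 of 15 rose, with medians of 2.81 and 2.06, where 12.4% and 13.6% of all genes were called higher. Iigp1, an interferon-inducible GTPase, went from 162 ± 89.3 to 1145 ± 38.5 CPM in 14559TN, and in 2646TN it was at 606 ± 105 and 1366 ± 50.2 CPM (adjusted p = 0.345). By edgeR none was called in 2646TN (median 1.05), 2646R (-0.46) or 14559R (0.10). Of all genes, 1.69%, 9.7% and 0.143% were called higher in these responses and 2.24%, 10.2% and 0.0527% lower. Before adjustment 6, 0 and 0 had a p under 0.05, and DESeq2 called 1, 0 and 0. The summed level of the list was 385.6 ± 145 CPM in treated 2646R and 3798 ± 31.1 CPM in treated 2646TN. Under drug Cd74, H2-DMa and Ctss had risen in 2646R, and Ctss had fallen in 2646TN. H2-DMa, H2-DMb1 and Ciita stood at 3.61, 3.28 and 0.70 CPM in treated 2646R and at 19.3, 20.7 and 5 CPM in treated 2646TN. Whether interferon bore on the members was not tested.

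Of 17 other genes of the class II pathway in the files 9 were tested. In the responses of 2646TN, 2646R, 14559TN and 13TN, 2, 6, 4 and 4 of the 9 fell and none rose, where 2.24%, 10.2%, 16% and 17.4% of all genes fell. Ctsl, which encodes cathepsin L, fell by 1.32, 2.46, 1.40 and 1.85 on the log2 scale. Mif, whose product binds CD74 at the cell surface, fell in 14559TN by 2.57 and in 13TN by 2.71. Ifi30, a lysosomal thiol reductase for antigen unfolding, was the 1 gene of the list lower in untreated 2646R than in 2646TN (-1.38 ± 0.21, adjusted p = 6.00e-06), and it was higher in 2646TN than in 14559TN (1.41 ± 0.21, adjusted p = 9.90e-06) and 13TN (1.21 ± 0.21, adjusted p = 1.08e-04). H2-Oa and H2-Ob, which encode the H2-DO inhibitor of H2-DM, had 5 and 4 counts over all libraries. Cd86 and Cd40 had 32 and 23.

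Over the 30 libraries, the genes whose levels were most like each member fell into differing company. These are Spearman coefficients of log2 CPM, given as descriptions, since libraries of a group share clone and treatment. The 8 members are left out of the ranking; among themselves the coefficient was 0.93 for Cd74 with H2-Ab1, 0.94 for H2-Aa with H2-Ab1, 0.92 for H2-Eb1 with H2-Ab1 and 0.87 for Ctss with H2-Aa. The 5 other genes most like Ctss were the macrophage genes C1qb (0.95), Cybb (0.92), Csf1r (0.86), C1qa (0.85) and Lyz2 (0.85). Cxcl16, a chemokine, came first among genes outside the 8 for Cd74 (0.92), H2-Ab1 (0.93), H2-Aa (0.88) and H2-Eb1 (0.88). Cybb was among the 5 for H2-Aa and H2-Ab1, and the antigen processing genes Tapbp, Psmb10 and Psme1 were among the 5 for Cd74. Meiob was also among the 5 for Cd74 and H2-Aa, and Ctr9 among those for H2-Aa, H2-Ab1 and H2-Eb1. The rest were Clec7a for H2-Aa, Psd and Snx19 for H2-Ab1, and Doc2g, Ephb3 and the pan-leukocyte gene Cd52 (0.82) for H2-Eb1. H2-DMa had Lgals9 (0.87) first, with the interferon-induced genes Oasl1, Ifi35 and Rsad2, and then Pigyl, behind it. For H2-DMb1 they were Hap1 (0.86), Glipr2, Psme1, Mpeg1 and Pla2g16, and for Ciita they were Asap3 (0.90), Cadm1, Pik3ip1, Tctn3 and Phf11b.

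Likeness was also taken within groups, with the deviations of all 10 groups pooled. After the group means were taken away, the deviations of Ctss and the mean of the macrophage list had a Pearson coefficient of 0.87 over 30 libraries, and those of H2-Ab1 0.85, Cd74 0.76, H2-Aa 0.72 and H2-Eb1 0.70. The coefficient was 0.52 for H2-DMa, 0.39 for H2-DMb1 and -0.13 for Ciita. Among the members, Ctss and H2-Ab1 had 0.92, and Ciita had -0.42 with Cd74 and 0.33 with H2-DMb1. Ciita, H2-DMb1 and H2-DMa are low counts in many groups, so their deviations carry more counting noise. H2-DMa had 13 counts over the 3 tumours of untreated 2646R and 22 over those of untreated 14559TN.

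**Figure D4:**
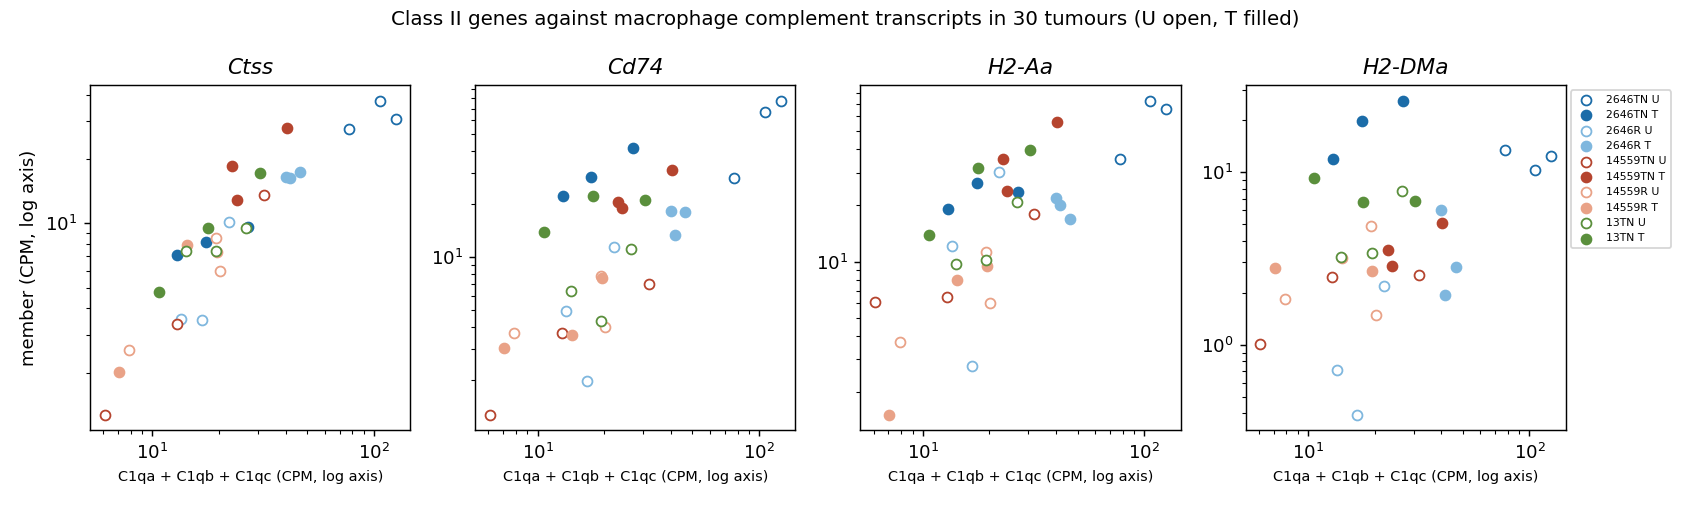
Ctss, Cd74, H2-Aa and H2-DMa in each of 30 tumours against the summed CPM of C1qa, C1qb and C1qc, both on log axes; colours are clones, open points untreated (U), filled points treated (T). Ctss broadly follows the C1q sum across groups, although its mean ratio to C1q is 0.30 in untreated and 0.68 in treated 14559TN. The H2-DMa values of treated 2646TN, 19.8, 12.0 and 26 CPM, give the highest ratios of H2-DMa to C1q of all tumours.

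Set per unit of C1q transcripts (the CPM of a gene over the summed CPM of C1qa, C1qb and C1qc in the same tumour), Cd74 was higher in the treated than in the untreated tumours of the 3 TN clones. Cd74 per C1q was 0.54 ± 0.15 in untreated and 1.64 ± 0.09 in treated 2646TN, 0.24 ± 0.04 and 0.83 ± 0.06 in 14559TN, and 0.37 ± 0.13 and 1.08 ± 0.34 in 13TN (SD, n = 3). In none of these 3 clones did the treated tumours overlap the untreated ones. In 2646R the ratio was 0.33 ± 0.20 and 0.39 ± 0.07, and in 14559R 0.36 ± 0.14 and 0.36 ± 0.09. H2-DMa per C1q was 0.12 ± 0.04 and 1.01 ± 0.11 in 2646TN, and between 0.06 and 0.49 as a mean in every other group. H2-DMa itself was at 12.0 ± 1.56 and 19.3 ± 7.01 CPM in untreated and treated 2646TN and was not called. Of the 4 genes drawn, Ctss had the narrowest spread of group means, from 0.30 to 0.68. Its mean ratio was higher in the treated than in the untreated tumours of each clone. In 14559TN it was 0.30 ± 0.11 and 0.68 ± 0.14 without overlap, in 2646TN 0.32 and 0.46, and in 13TN 0.42 and 0.51. The Ctss means were 0.31 and 0.39 in 2646R and 0.35 and 0.41 in 14559R. With 3 tumours against 3 the smallest two-sided p of an exact permutation test is 0.1, so no test was made of these ratios. Whether the transcripts came from tumour cells or from leukocytes left in the sorted cells was not tested.

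**Figure D5:**
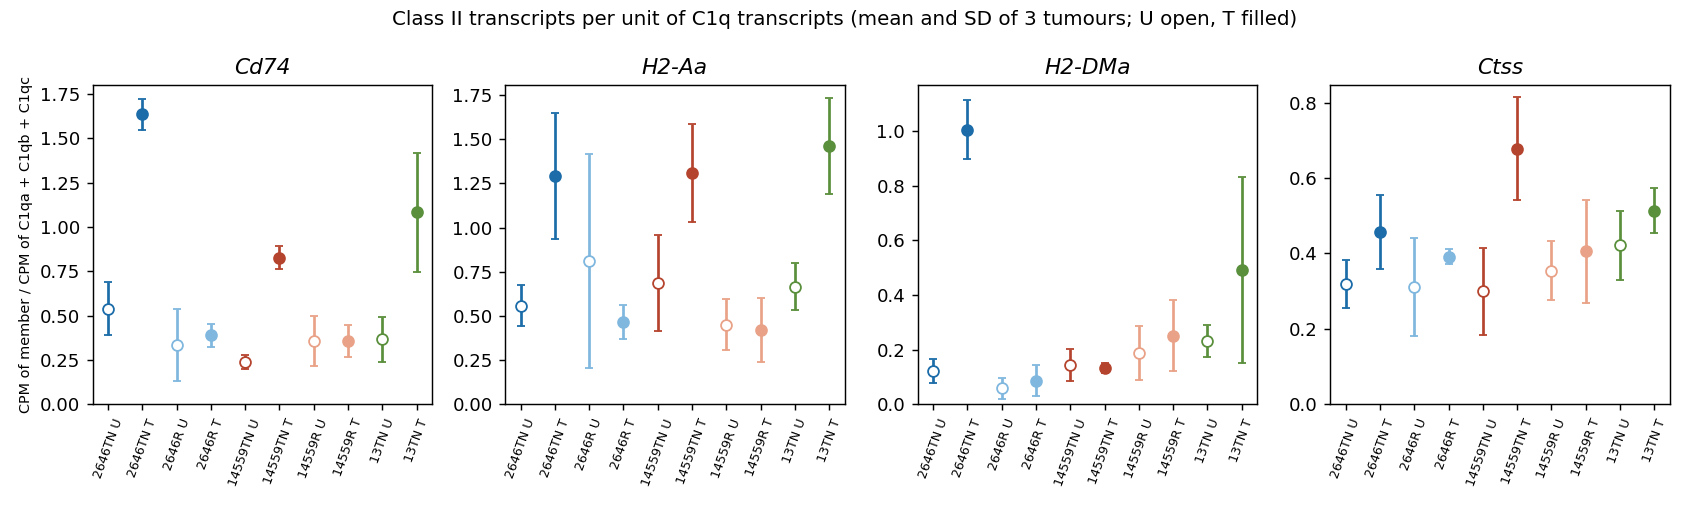
CPM of Cd74, H2-Aa, H2-DMa and Ctss divided by the summed CPM of C1qa, C1qb and C1qc of the same tumour; points are means and bars SDs of 3 tumours, open untreated (U) and filled treated (T). For Cd74 and H2-Aa the ratio is higher in treated than in untreated 2646TN, 14559TN and 13TN. For Ctss the mean ratio is higher in the treated tumours of every clone, and the group means stay between 0.30 and 0.68. In 2646TN the C1q sum itself is lower in the treated tumours.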

How the data were processed

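RNA from GFP-positive cells of 30 tumours was made into Lexogen QuantSeq 3′ libraries, per the labels' protocols. Per the file headers, the authors counted reads per gene with featureCounts 1.6.2, and they deposited raw counts; the submitters' processing notes name STAR 2.6.0c and GRCm38. Each file held 54532 features, and library totals ran from 3022801 to 5278453 counts (median 4042893). Counts are reads without molecular identifiers, so intervals and floors cover counting error only.

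Counts were analysed in R 4.3.3 with edgeR 4.0.16: default low-count filter by group (13286 genes), TMM factors, 1 robust quasi-likelihood fit of the 10 groups, 14 contrasts, Benjamini-Hochberg adjustment over all genes tested and a call below 0.05. Standard errors are the fold change over the root of F. The method was tested on simulated data. The labels name no animals beyond tumour codes, replicates were numbered in accession order, and p-values measure the spread between tumours. No batch is named in the labels. Alternatives were median-of-ratios factors, no low-count filter, DESeq2 1.42.0, only the groups compared, the macrophage list's mean log2 CPM as a covariate, and leaving out each library.

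The members and gene lists were chosen with earlier results of these data known. All 8 members were named with their values, up to 4 genes of a list by mean CPM together with those at 0 in all libraries, and the 5 genes most like each member. Other single genes of the lists were named after their values were seen. Promoter windows were read from RefSeq (GRCm38.p6). Some genes of the lists are not reported here by name.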

Additional observations from a re-analysis of the deposited data

Results flagged for a closer look

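In 4 cases a member's response to RAFi/MEKi differed between the R and the TN clone of 1 pair by edgeR's quasi-likelihood test of the difference itself. Between 2646R and 2646TN these were Cd74 (2.38 on the log2 scale, adjusted p = 0.0449) and Ctss (3.51, adjusted p = 0.0093), both more positive in 2646R than in 2646TN. For that pair 2.36% of all genes were called higher and 1.78% lower. Between 14559R and 14559TN these were Cd74 (-2.67, adjusted p = 0.0302) and H2-DMb1 (-3.87, adjusted p = 0.0077), both more negative in 14559R than in 14559TN. There 7.93% of all genes were called higher and 4.08% lower. In the fit with the macrophage mean the Cd74 difference was negative in both, at -0.54 between 2646R and 2646TN and -2.29 between 14559R and 14559TN, and the first was called in 3 of 12 fits with 1 tumour left out. Macrophage genes differed in the same direction between 2646R and 2646TN, where 9 of 16 were called higher and 0 lower, and between 14559R and 14559TN 1 was higher and 1 lower.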

How the results depend on the processing

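Over the 14 comparisons 48 calls were made among the 8 genes. Median-of-ratios factors kept 48, DESeq2 47 and no low-count filter 47. A fit of only the groups compared kept 37 of the 42 it could give a value for, the macrophage covariate kept 22, and 27 held in every fit with 1 library left out. The numbers of genes called that moved by over 1.5 times were as follows; smaller moves are not listed. Without the filter they were 5 in the 2646TN response, 5 in 2646R, 4 in 13TN, 6 for treated 2646R against 2646TN, 5 for the 2646R and 2646TN response difference and 6 for the 14559R and 14559TN one. With the covariate they were 0 in 2646TN, 0 in 2646R, 5 in 13TN, 2 and 6 for untreated and treated 2646R against 2646TN, 1 for 2646TN against 13TN, 2 for 2646TN against 14559TN and 0 for the 2646R and 2646TN response difference. With only the groups compared they were 4 in 2646TN, 2 in 14559TN, 5 for treated 2646R against 2646TN and 1 for the 14559R and 14559TN response difference, and with DESeq2 2 in 2646TN and 1 in 13TN. The covariate turned the sign of 9 called values: Ctss in the 2646TN response (0.59), H2-Aa (0.45), H2-Ab1 (0.047) and Ctss (0.17) in untreated 2646R against 2646TN, H2-Aa (-0.14), H2-Ab1 (-0.11) and Ctss (-0.49) in 2646TN against 13TN, and Cd74 (-0.54) and Ctss (-0.21) in the 2646R and 2646TN response difference. The covariate's slope was set by tumours within groups, and the cause of these changes was not tested. With 1 library left out the numbers called ranged from 0 to 0 for the 2646TN response, from 0 to 3 for 2646R, from 1 to 5 for 14559TN, from 0 to 2 for 13TN, 3 to 7 for 2646TN against 13TN, 1 to 3 for the 2646R and 2646TN response difference and 1 to 4 for the 14559R and 14559TN one. No paired analysis was possible because the tumour codes differ in every group and replicate numbers were given in accession order. Depth limits Ciita and H2-DMb1, which rest on 0 to 3 counts in some groups, and also H2-DMa, which had 13 counts in untreated 2646R.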
